A study of Mus musculus with 24 samples.

Results

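The proteasome genes described here are the 49 genes of the count table, of 25160 in all, whose symbol is Psma, Psmb, Psmc, Psmd, Psme, Psmf or Psmg followed by a number and, in Psme2b, a letter. The choice of genes used their symbols, and for each the values are those of the transcript whose mean count was highest. By role they comprise 14 constitutive subunits of the 20S core and 20 genes of the 19S regulatory particle. These 20 are subunits and assembly factors, with Psmd5 and Psmd10 among the assembly factors. A further 3 are the catalytic subunits of the immunoproteasome, and 2 are subunits of the interferon-inducible activator PA28. The other 10 are 3 further regulators, 4 assembly chaperones, 2 tissue-restricted subunits and Psme2b, a retrogene copy of Psme2.

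The proteasome degrades ubiquitin-tagged proteins: the 19S particle binds and unfolds them with its ATPases (Psmc genes), and the barrel of the 20S core cuts them at the active sites of Psmb5, Psmb6 and Psmb7. In cells exposed to interferon, Psmb8 can take the place of Psmb5, Psmb9 that of Psmb6 and Psmb10 that of Psmb7. The resulting immunoproteasome, and the PA28 cap made of Psme1 and Psme2, are known for supplying peptides to MHC class I molecules, and macrophages are among the cells that use them.

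The cells were RAW264.7, a mouse macrophage line, in 2 stable derivatives with a doxycycline-inducible gene for Nur77, a nuclear receptor, or for GFP. All cells, the GFP controls too, received 50 ng/ml doxycycline for 18 h and then 500 ng/ml lipopolysaccharide (LPS, a bacterial activator of macrophages) for 0, 1 or 5 h. Each of the 6 groups, 1 line at 1 time, held 4 libraries. The labels do not call them separate cultures, and p-values therefore measure only how these libraries vary, which may be technical. Each construct was carried by 1 stable line, so an effect of the construct and a difference between the lines cannot be told apart.

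Library sums over genes ranged from 8134143 to 29275847 estimated counts. Levels are in CPM, counts relative to library size with trimmed-mean scaling, given per kilobase of transcript wherever genes are compared with each other. Expression of Nr4a1, the mouse gene of Nur77, at 0 h was 3.03 ± 0.39 CPM with GFP and 3.27 ± 0.40 CPM with Nur77 (SD, n = 4; log2 difference 0.10, adjusted p = 0.868). At 1 h it was 61.7 ± 6.64 and 32.9 ± 15.8 CPM and was called lower in the Nur77 line (-0.91, adjusted p = 0.00488). The Nur77 libraries spread widely at 1 h, and this call was not checked without single libraries. Nothing used here states the species or sequence of the inserted gene, so the level of Nr4a1 does not check the labels. The 9 macrophage markers summed to group means of 10390 to 10960 CPM in the GFP line. With Nur77 the sums were 6176 to 7684 CPM. Such a sum is weighted to the most abundant markers, as mean counts ran from 647 for Fcgr1 to 64975 for Lyz2. Tested singly, 4 of the 9 passed as lower with Nur77 and 1 as higher at 0 h, and likewise at 1 h. At 5 h these counts were 5 and 1, and the remaining markers passed in neither direction. Over all genes 19.7% were called lower and 20.3% higher at 0 h, 24.8% and 26.4% at 1 h, and 24.4% and 22% at 5 h. Without Nur77 replicate 2 at 1 h, 2, 0 and 2 markers passed as higher at 0, 1 and 5 h, and the counts of lower markers were the same. The part of the markers in the differences between the lines was not tested. The 5 epithelial markers were at 0 throughout, and the fibroblast and lymphocyte markers summed to at most 0.723 and 0.948 CPM in any library. Replicate 2 of the Nur77 line at 1 h stood apart from its group, at 11.7 on the first principal component where its 3 partners lay between -11.4 and -10.2. In that library 27 of the 49 proteasome genes lay above all of its partners and 5 below, and results at 1 h in the Nur77 line that moved with it are given with and without it. Shares of all genes called are throughout those of the reported fit of all 24 libraries.

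The stretches upstream of the 5 inducible genes are shown because these genes are grouped by their known response to interferon. Psma6, named for its rise after LPS, is 1 of 6 with a match to the kB consensus, the binding sequence of NF-kB factors. Its upstream stretch is shown as well. All are 5′ to 3′ on the gene's own strand, from RefSeq on GRCm38.p6, and end at the base before a RefSeq start of the gene. The Psma6 stretch precedes the second of its RefSeq starts and lies inside the gene. Capitals mark a match to the GAS motif (TTCNNNGAA, the interferon-gamma activated site) in Psmb8 and to the kB consensus in Psma6. The stretch of Psmb9 is the whole 225 bases between its start and that of Tap1, a peptide transporter gene that is transcribed away from it.
Psmb8, chr17:34197945-34198194, plus strand: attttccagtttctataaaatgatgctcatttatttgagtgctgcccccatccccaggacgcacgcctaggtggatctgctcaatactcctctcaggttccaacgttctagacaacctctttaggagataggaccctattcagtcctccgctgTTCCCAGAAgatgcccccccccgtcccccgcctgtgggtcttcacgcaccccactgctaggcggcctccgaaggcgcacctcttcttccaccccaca
Psmb9, chr17:34187331-34187555, minus strand: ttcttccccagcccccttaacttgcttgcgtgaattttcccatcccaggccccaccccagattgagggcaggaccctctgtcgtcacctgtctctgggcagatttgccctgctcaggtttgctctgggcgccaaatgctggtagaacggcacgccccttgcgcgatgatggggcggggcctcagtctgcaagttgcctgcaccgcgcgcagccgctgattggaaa
Psmb10, chr8:105938393-105938642, minus strand: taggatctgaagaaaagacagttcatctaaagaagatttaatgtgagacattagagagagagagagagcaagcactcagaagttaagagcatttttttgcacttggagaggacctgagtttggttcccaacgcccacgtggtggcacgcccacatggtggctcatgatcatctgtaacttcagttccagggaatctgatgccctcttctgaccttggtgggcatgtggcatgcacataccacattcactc
Psme1, chr14:55578244-55578493, plus strand: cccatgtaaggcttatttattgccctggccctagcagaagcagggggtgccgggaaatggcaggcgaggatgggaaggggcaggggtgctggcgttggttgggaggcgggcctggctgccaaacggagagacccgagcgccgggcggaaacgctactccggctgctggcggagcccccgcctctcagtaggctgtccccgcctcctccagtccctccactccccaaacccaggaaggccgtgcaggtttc
Psme2, chr14:55591102-55591351, minus strand: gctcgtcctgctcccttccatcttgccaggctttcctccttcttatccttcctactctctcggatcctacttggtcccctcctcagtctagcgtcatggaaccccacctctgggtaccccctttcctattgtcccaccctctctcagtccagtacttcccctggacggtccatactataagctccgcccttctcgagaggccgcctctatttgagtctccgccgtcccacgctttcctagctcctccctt
Psma6, chr12:55398575-55398824, plus strand: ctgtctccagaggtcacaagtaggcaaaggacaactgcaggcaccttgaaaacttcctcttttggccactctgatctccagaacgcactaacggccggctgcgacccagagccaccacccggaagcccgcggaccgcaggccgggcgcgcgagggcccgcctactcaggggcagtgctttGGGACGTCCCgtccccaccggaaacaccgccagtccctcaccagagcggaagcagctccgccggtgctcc

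Upstream windows of 250 bases were found for 41 of the 49 genes and searched on both strands. The interferon-stimulated response element (GAAA, any 2 bases, GAAA) was present in 3 of the 41 genes (7.32%, against 3.46% of all 27025 genes with such windows). The GAS motif was present in 2, Psmb8 and Psmg1 (4.88%, against 8.13%), and in Psmb8 it lay 97 to 89 bases before the start. The kB consensus was present in 6 (14.6%, against 8.23%), and in Psma6 it lay 70 to 61 bases before the second of 2 RefSeq starts. Of these 6 genes Psma6, Psmd11 and Psmd12 were called higher after 5 h of LPS in both lines, Psma7 in Nur77 cells, and Psmd13 and Psme4 in neither (the 5 beside Psma6 are named here for the match). Of all 48 tested proteasome genes 25 were called higher in GFP cells and 34 in Nur77 cells, against 30.6% and 32.5% of all genes. Psmd10 and Psmd8, also named for their rise after LPS, had no kB match in their windows. The window before the first Psma6 start had none either. A link between the match and the response to LPS was not tested. The antioxidant response element (TGACNNNGC) was found in 5 genes (12.2%, against 11.5%), the constitutive catalytic subunit genes Psmb5 and Psmb6 among them. CCAAT boxes were in 14 genes (34.1%, against 37.5%), which included Psmb9, and the ATTGG letters of that match lie near the end of its stretch above. None of the GAS, kB and interferon response letters was in the windows of Psmb9, Psmb10, Psme1 and Psme2, which says nothing about binding outside these windows or to other sequences.

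Before LPS the inducible catalytic subunits were expressed below their constitutive counterparts in the GFP line, whereas in the Nur77 line Psmb8 was at 42.6 ± 1.97 and Psmb5 at 41.0 ± 0.879 CPM per kilobase. In the GFP line at 0 h, the level per kilobase was 9.21 ± 0.88 CPM for Psmb9, 12.2 ± 0.609 for Psmb10 and 33.6 ± 3.02 for Psmb8 (SD, n = 4). Psmb5 followed at 44.5 ± 4.43, the PA28 genes Psme2 and Psme1 at 61.9 ± 0.79 and 77.3 ± 7.02, and Psmb7 and Psmb6 at 119 ± 3.26 and 186 ± 7.16 CPM per kilobase. The ranges of the 4 libraries did not overlap between any neighbours in this order. Among all tested proteasome genes with a known transcript length, the level per kilobase in this group ran from 7.52 CPM for Psmf1, the proteasome inhibitor PI31, to 222 CPM for Psma6, a subunit of the alpha ring. Psmb11, a catalytic subunit of the thymus named here after its values were seen, did not exceed 0.181 CPM in any library and was the only one of the 49 genes removed by the filter on low counts.

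Psmb10, the trypsin-like site of the immunoproteasome (chromosome 8, 105935728 to 105938392, minus strand, GRCm38), was raised by 5 h of LPS in both lines. In the GFP line its level was 16.8, 16.5, 15.15 and 15.4 CPM at 0 h and 34.7, 35.6, 35.03 and 32.1 CPM at 5 h. In the Nur77 line it was 15.0, 17.7, 17.1 and 15.4 CPM at 0 h and 23.3, 27.5, 29.3 and 28.2 CPM at 5 h. The 5 h libraries of each line lay above all of its 0 h libraries, and all 4 Nur77 libraries at 5 h lay below all 4 GFP libraries. The rise was 1.11 on the log2 scale in GFP cells (SE 0.10, adjusted p = 8.9e-10, edgeR's quasi-likelihood test with Benjamini-Hochberg adjustment over 12198 genes) and 0.72 in Nur77 cells (SE 0.11, adjusted p = 1.78e-06). At 5 h Psmb10 was lower in the Nur77 line, at -0.35 on the log2 scale (SE 0.10, adjusted p = 0.00584), whereas the test of the difference between the 2 rises did not pass (-0.39, adjusted p = 0.116). A fit of only the 4 groups that enter it called that difference (-0.39, adjusted p = 0.0148).

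Psmb9, the immunoproteasome subunit that replaces Psmb6 (chromosome 17, 34182030 to 34187330, minus strand), fell with LPS in the Nur77 line. There it was at 14.0, 14.2, 17.0 and 13.7 CPM at 0 h and at 8.95, 9.22, 9.51 and 8.93 CPM at 5 h, with no overlap between the times. In the GFP line it was at 12.5, 12.4, 13.9 and 11.0 CPM at 0 h and at 14.3, 14.4, 13.2 and 13.9 CPM at 5 h, where the ranges overlapped. The log2 fold change after 5 h was -0.69 in Nur77 cells (SE 0.13, adjusted p = 6.6e-05) and 0.16 in GFP cells (adjusted p = 0.276). The difference between these responses was -0.85 (SE 0.18, 95% interval -1.23 to -0.47, adjusted p = 0.00364), and it was the only one of the 48 tested proteasome genes called in that comparison. It stayed between -0.917 and -0.769 and was called under all 31 alternatives tried. At 5 h Psmb9 was lower in the Nur77 line by -0.61 (SE 0.13, adjusted p = 0.000504), whereas the difference of 0.25 at 0 h missed the threshold (adjusted p = 0.134). Counting here was not stated to use strand, and 12.5% of the 50-base words of the Psmb9 transcript also occur, on the opposite strand, in Tap1 transcripts, so some reads could belong to either gene.

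Psmb8, the chymotrypsin-like site of the immunoproteasome (chromosome 17, 34198195 to 34201454, plus strand), did not pass the test after 5 h of LPS in either line. Its levels were 59.4, 58.5, 51.6 and 49.5 CPM in GFP cells at 0 h and 61.7, 62.5, 63.3 and 58.3 CPM at 5 h. In Nur77 cells they were 64.9, 72.2, 71.0 and 69.3 CPM at 0 h and 62.3, 67.4, 70.4 and 63.8 CPM at 5 h. The ranges of 0 h and 5 h overlapped in both lines, with log2 fold changes of 0.17 (95% interval 0.01 to 0.33, adjusted p = 0.0586) and -0.07 (-0.23 to 0.09, adjusted p = 0.417). The change in GFP cells was called in 6 of 31 alternatives. At 0 h all 4 Nur77 libraries lay above all 4 GFP libraries, and the difference passed (0.35, SE 0.08, adjusted p = 0.000894).

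The PA28 genes lie near each other on chromosome 14 and both rose with LPS. Psme2, the beta subunit (55587440 to 55591101, minus strand), was at 58.5 to 60.1 CPM in the 4 GFP libraries at 0 h and at 135 to 145 CPM at 5 h. In the Nur77 libraries it was at 60.0 to 66.3 CPM and then at 125 to 136 CPM. These are rises of 1.24 (SE 0.08, adjusted p = 1.17e-12) and 1.04 (SE 0.08, adjusted p = 3.89e-11) on the log2 scale, larger than the spread between libraries. Psme1, the alpha subunit (55578494 to 55581527, plus strand), rose by 0.47 in GFP cells (SE 0.07, adjusted p = 1.71e-06) and by 0.39 in Nur77 cells (SE 0.07, adjusted p = 2.52e-05), with all 5 h libraries above all 0 h libraries in each line. Psme2b, the retrogene copy on chromosome 11 and named after its values were seen, rose by 0.88 and 0.89. Since 59.3% of the 50-base words of Psme2 also occur in Psme2b or a pseudogene, the reads of the copies could have been split between them and the values of both are uncertain.

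**Figure D1:**
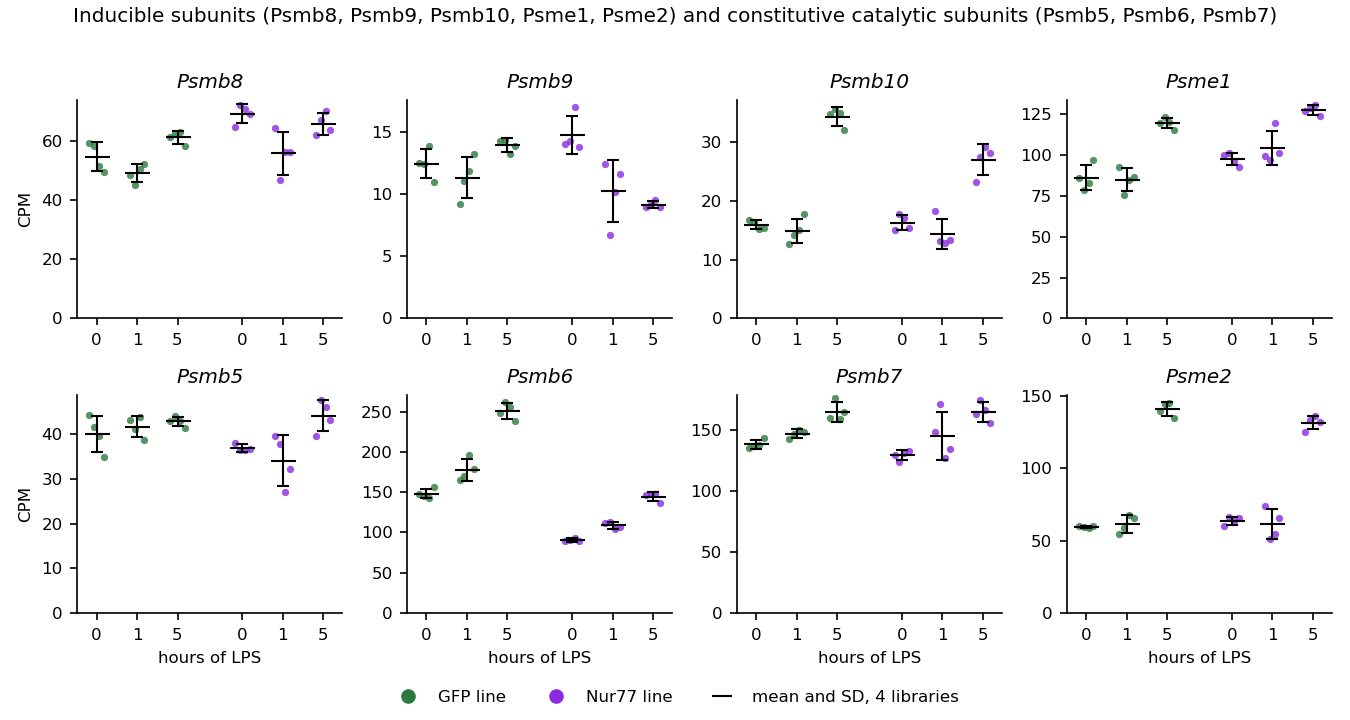
Level in CPM (vertical axis, from 0) of the 5 inducible subunit genes and the 3 constitutive catalytic subunit genes in every library, by hours of LPS (horizontal axis). Points are libraries, green for the GFP line and purple for the Nur77 line, and bars give the mean and SD of 4 libraries. Psmb10 and Psme2 stand higher at 5 h in both lines, Psmb9 is lower at 5 h in the Nur77 line alone, and Psmb6 is lower in the Nur77 line at every time.

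After 1 h of LPS the 5 inducible genes had not risen by the test in either line. In GFP cells edgeR called 0 of 5, as did an unadjusted p under 0.05 and the DESeq2 Wald test, against 9.75% higher and 7.68% lower over all genes. In Nur77 cells 2 of 5 fell, where 21.8% of all genes did and 22.5% were called higher: Psmb9 by -0.52 (SE 0.13, adjusted p = 0.00229) and Psmb8 by -0.30 (SE 0.08, adjusted p = 0.00285). Psmb9 was at 12.4, 6.73, 10.2 and 11.6 CPM in these 4 libraries and Psmb8 at 64.7, 46.9, 56.4 and 56.3 CPM, with replicate 2, the library that stood apart, lowest for both. Without that library both genes were still called lower, at -0.38 (adjusted p = 0.00618) and -0.23 (adjusted p = 0.0123).

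In the constitutive core the catalytic subunit Psmb6 (chromosome 11, 70525324 to 70527858, plus strand) changed most between the lines. It was at 148, 145, 143 and 156 CPM in the GFP libraries at 0 h and at 89.3, 90.4, 93.5 and 89.3 CPM in the Nur77 libraries. At 5 h it was at 248, 262, 255 and 238 CPM in GFP cells and at 147, 147, 148 and 136 CPM in Nur77 cells. The lines did not overlap at any time, and the log2 fold change between them was -0.71 at 0 h (SE 0.06, adjusted p = 1.08e-10), -0.70 at 1 h and -0.80 at 5 h. LPS raised Psmb6 in each line, by 0.76 in GFP cells and 0.67 in Nur77 cells at 5 h, and the difference between these rises did not pass (-0.09, 95% interval -0.25 to 0.07, adjusted p = 0.567).

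Psmb5 and Psmb7 moved less. Psmb5 was at 34.8 to 44.3 CPM in GFP cells at 0 h and 41.4 to 44.0 CPM at 5 h, which is 0.10 on the log2 scale and missed the threshold (95% interval -0.08 to 0.29, adjusted p = 0.334), and it rose by 0.26 in Nur77 cells (SE 0.09, adjusted p = 0.0161). Of its 50-base words 57.1% also occur in pseudogenes or other transcripts. Psmb7 rose by 0.25 in GFP cells (SE 0.07, adjusted p = 0.00199) and by 0.35 in Nur77 cells (SE 0.07, adjusted p = 6.32e-05), and 28.1% of its words also occur in Nek6 transcripts on the opposite strand.

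The ratio of the inducible to the constitutive subunit was taken within each library for the 3 catalytic pairs, which needs no scaling between libraries. Expressed per length, Psmb9 made up 4.75% ± 0.587 of the sum of Psmb9 and Psmb6 in GFP cells at 0 h and 3.19% ± 0.167 at 5 h (SD, n = 4). In Nur77 cells the share was 8.77% ± 0.626 at 0 h and 3.63% ± 0.121 at 5 h. Psmb10 made up 9.30% ± 0.606 of its pair in GFP cells at 0 h and 15.6% ± 0.785 at 5 h, against 10.1% ± 0.954 and 12.7% ± 1.20 in Nur77 cells. Psmb8 made up 43.0% ± 1.05 and 44.2% ± 0.472 of its pair in GFP cells and 50.9% ± 1.70 and 45.3% ± 1.15 in Nur77 cells at these times. The Psmb9 share was thus lower at 5 h in both lines, the mean Psmb10 share higher in both (with overlap of libraries in Nur77 cells, from 9.307% to 11.3% at 0 h and from 11.23% to 13.85% at 5 h), and the Psmb8 share lower at 5 h in Nur77 cells, without overlap of libraries, with overlap in GFP cells.

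On the log2 scale the Psmb9 to Psmb6 ratio of the counts was -3.56, -3.54, -3.37 and -3.83 in the GFP libraries at 0 h and -4.11, -4.19, -4.27 and -4.10 at 5 h. In the Nur77 libraries it was -2.66, -2.66, -2.46 and -2.70 at 0 h and -4.04, -3.99, -3.95 and -3.92 at 5 h. The means differed by -0.59 in GFP cells and by -1.35 in Nur77 cells between 5 h and 0 h, with no overlap of libraries in either. The Psmb10 to Psmb7 ratio differed by 0.85 and 0.38, and the Psmb8 to Psmb5 ratio by 0.07 and -0.33. Each pair was compared in 7 ways, 21 tests in all, with exact two-sided permutation tests of 4 against 4 libraries, which cannot give a p below 0.0286. Of the 21 tests 9 reached that smallest p, and 0 passed after Benjamini-Hochberg adjustment (smallest adjusted p = 0.0667). With this smallest p no single ratio could pass the adjustment by itself, however large its change. The lack of calls therefore does not show that the ratios were unchanged. Several of the 7 comparisons share libraries.

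**Figure D2:**
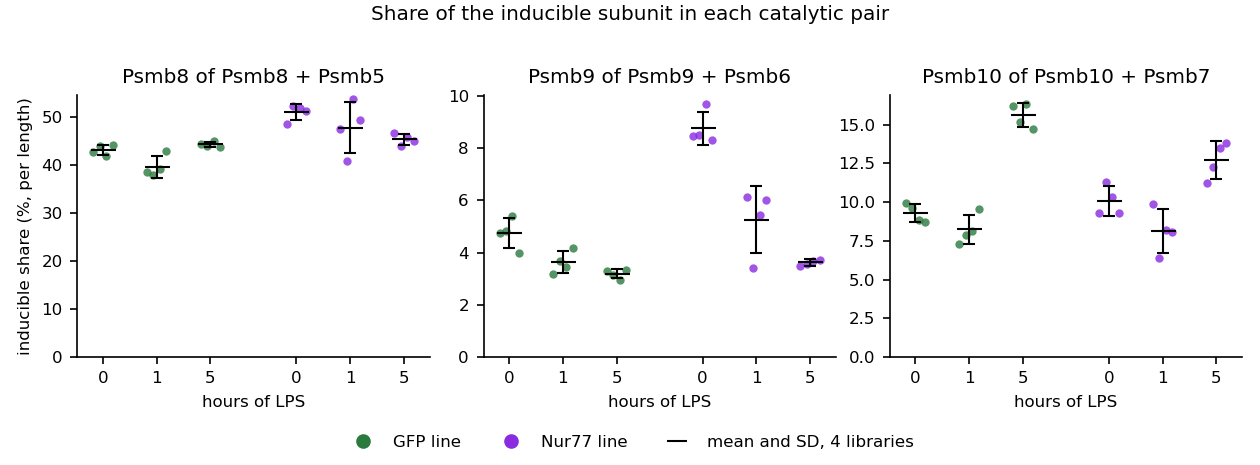
Share of the inducible subunit in the sum of each catalytic pair, in percent and per transcript length (vertical axis, from 0), by hours of LPS (horizontal axis) in the GFP line (green) and the Nur77 line (purple). Points are libraries and bars the mean and SD of 4. The Psmb9 share is lower at 5 h than at 0 h in both lines, from 4.75% to 3.19% in GFP cells and from 8.77% to 3.63% in Nur77 cells, while the Psmb10 share is higher.

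Across the whole complex, 5 h of LPS raised many constitutive genes together with the inducible ones. In GFP cells 25 of the 48 tested proteasome genes were called higher, where 30.6% of all 12198 genes were, and 1 was called lower, where 32% of all genes were. In Nur77 cells 34 were called higher, against 32.5% of all genes, and 2 lower, against 34.2%. All 25 genes called higher in GFP cells were also called higher in Nur77 cells, where they made up 73.5% of those called. The median log2 fold change over the 48 genes was 0.18 in GFP cells and 0.29 in Nur77 cells, beside -0.02 and -0.03 over all genes. The summed level of the 49 genes was 6065 ± 133 CPM at 0 h and 7659 ± 138 CPM at 5 h in GFP cells, and 5819 ± 58.6 and 7703 ± 96.8 CPM in Nur77 cells (SD, n = 4). A change in RNA per cell and a change in the mix of cells cannot be told apart in these bulk samples.

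The largest rise of all was that of Psmd10, and Psma6 and Psmd8 followed Psme2 and Psmb10 in GFP cells. Psmd10 (gankyrin, a 19S assembly factor, on chromosome X) was at 34.1, 33.2, 33.2 and 43.8 CPM in GFP cells at 0 h and at 105, 107, 101 and 105 CPM at 5 h. It rose by 1.53 (SE 0.08, adjusted p = 5.05e-15) in GFP cells and by 1.33 in Nur77 cells, with no overlap of libraries between the times. Psma6 (chromosome 12, 55384222 to 55418459, plus strand), whose upstream stretch above holds the kB match, was at 219 to 249 CPM in GFP cells at 0 h and 438 to 473 CPM at 5 h. It rose by 0.97 (SE 0.07, adjusted p = 1.33e-12) there and by 1.09 in Nur77 cells. Psmd8, a subunit of the 19S lid, rose by 0.96 and 1.21. Psmd11, another lid subunit and named after its values were seen, rose by 0.70 and 0.73, and Psmd5, a 19S assembly chaperone, fell by 0.20 and 0.45.

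By role, to be read against the 30.6% of all genes called higher in GFP cells and the 32.5% in Nur77 cells, the alpha ring had 4 of 7 genes called higher in GFP cells and 7 of 7 in Nur77 cells after 5 h, and the 19S ATPases 5 of 6 in each. Of the 14 non-ATPase genes of the 19S particle 9 were called higher in GFP cells and 11 in Nur77 cells, and Psmd5 was called lower in both. The structural beta subunits had 2 of 4 called in Nur77 cells. In GFP cells edgeR and DESeq2 called 0 of these 4, and 1 had an unadjusted p under 0.05. None of the 4 alpha ring assembly chaperones (Psmg1, Psmg2, Psmg3 and Psmg4) was called after 5 h in either line by edgeR, by DESeq2 or at an unadjusted p under 0.05. Of the further regulators, Psme3, the nuclear PA28 gamma activator, rose by 0.42 and 0.55. Psme4, the activator PA200, and Psmf1 did not pass in either line, with log2 fold changes from -0.17 to -0.04. Psma8, the alpha subunit of the testis, was at 16.2 to 25.3 CPM over all 24 libraries and rose in Nur77 cells by 0.21 (SE 0.08, adjusted p = 0.024).

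**Figure D3:**
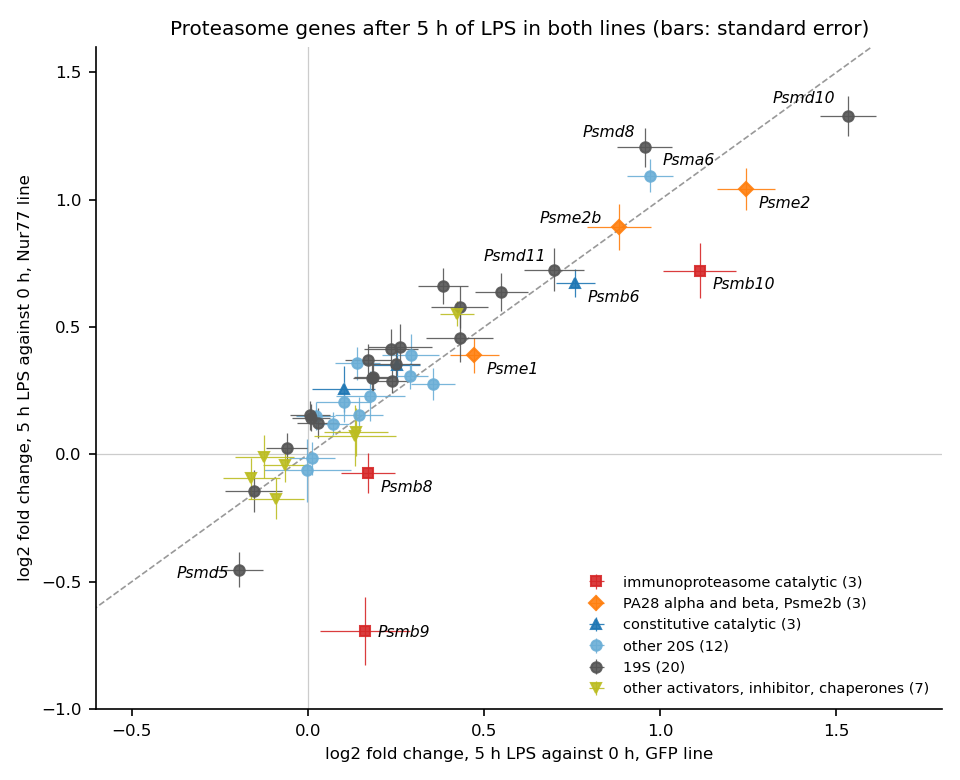
Log2 fold change of the 48 tested proteasome genes after 5 h of LPS against 0 h in the GFP line (horizontal axis) and the Nur77 line (vertical axis), coloured by role, with standard errors as bars. The dashed line marks equal values. Psmb9 lies farthest below it, at 0.16 and -0.69, and Psmd10, Psme2, Psma6, Psmd8 and Psmb10 lie at the upper right.

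After 1 h of LPS few genes had moved in GFP cells. Psmb6 rose by 0.26, Psmd10 by 0.41 (SE 0.08, adjusted p = 0.000442) and Psmd8 by 0.38 (SE 0.08, adjusted p = 0.00065), 3 of 48 called higher, against 9.75% of all genes. In GFP cells 0 were called lower, against 7.68% of all genes, by edgeR, by DESeq2 and at an unadjusted p under 0.05. Without Nur77 replicate 2 at 1 h, which enters the shared estimate of spread, 5 were called higher. In Nur77 cells 18 were called higher, against 22.5% of all genes, and 6 lower, against 21.8%. Without replicate 2 those counts were 12 and 6, and the median log2 fold change went from 0.09 to 0.02. Psmd8 was at 353, 492, 406 and 344 CPM in these libraries and at 229 to 246 CPM at 0 h, a rise of 0.75 (SE 0.08, adjusted p = 2.13e-08), with replicate 2 again at the end of the range, and 0.63 without it.

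The difference between the lines in the response to LPS was tested as an interaction. At 1 h edgeR called 0 of the 48 genes, where 0.615% of all genes were called as more positive and 0.516% as more negative in Nur77 cells. At an unadjusted p under 0.05 there were 11 and 2 such genes, the DESeq2 Wald test called 4 and 0, and edgeR called 7 and 2 without Nur77 replicate 1 at 1 h, and 5 and 0 without replicate 4. At 5 h Psmb9 alone was called, as more negative, against 5.12% of all genes, and 0 were called as more positive by edgeR or DESeq2, against 2.75% (4 had an unadjusted p under 0.05). Without Nur77 replicate 2 at 1 h, 3 were called as more positive and 2 as more negative.

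Before LPS the lines differed in few proteasome genes. At 0 h 3 of 48 were called higher in the Nur77 line, against 20.3% of all genes, and 6 lower, against 19.7%. The 3 became 6 without Nur77 replicate 2 at 1 h or GFP replicate 4 at 0 h, and 1 without GFP replicate 1 or Nur77 replicate 3 or 4 at 0 h. Higher were Psmb8 (0.35), the assembly chaperone gene Psmg2 (0.24) and Psme1 (0.18, adjusted p = 0.0442), the last of which was not called in 22 of 31 alternatives. Lower were Psmb6 (-0.71), Psmc1, a 19S ATPase (-0.39), Psmd8 (-0.37), Psma3 and Psma6 of the alpha ring (-0.36 and -0.26) and Psmd2, the scaffold of the 19S base (-0.30). At 1 h 16 were called higher, against 26.4%, and 7 lower, against 24.8%, with the 19S ATPase gene Psmc6 (0.49), the 19S lid gene Psmd7 (0.47) and Psmg1 (0.37) at the top. Without replicate 2 the counts were 15 and 7, the median went from 0.02 to -0.0029, and these 3 genes were at 0.35, 0.33 and 0.26, with Psme1 (0.34) and Psma8 (0.31) above Psmg1. Psmb5 was among the 7, at -0.29 (adjusted p = 0.0112) and -0.34 without replicate 2, and Psmf1 was called only with it (adjusted p = 0.0286, and 0.0556 without). At 5 h 11 were called higher, against 22%, and 6 lower, against 24.4%, with Psmg2 (0.31), Psma8 and Psmd12 (both 0.29) highest. Psma3, Psmb6 and Psmd2 were called lower at all 3 times, and 0 genes were called higher at all 3. The Psma3 call at 1 h and the Psmd2 call at 5 h were each lost in 1 of 31 alternatives. Of the 50-base words of Psma3, Psmb6 and Psmd2, 22%, 2.7% and 26.1% also occur in transcripts of other genes. Fits of only the 8 libraries compared called 14 genes at 1 h and 28 at 5 h, and the shares of all genes under these fits are not given.

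Psma3 (chromosome 12, 70969283 to 70995877) was at 169 to 181 CPM in GFP cells at 0 h and at 130.1 to 138 CPM in Nur77 cells. At 5 h it was at 218 to 226 CPM and 159 to 168 CPM, again without overlap. Psmc1 (chromosome 12, 100110202 to 100123364) was at 306 to 340.3 CPM and 238 to 246 CPM at 0 h. These 2 genes and Psma6 are the members on chromosome 12, where 65.5% of the 435 tested genes were called lower in the Nur77 line at 0 h, against 17.9% of the 11728 genes placed elsewhere. At 5 h the shares were 68.7% and 22.7%, and the median log2 fold change of chromosome 12 genes was -0.45. The part of this in the lower levels of the 3 genes was not tested. Psmb6 lies on chromosome 11, Psmd2 on chromosome 16 and Psmd8 on chromosome 7.

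**Figure D4:**
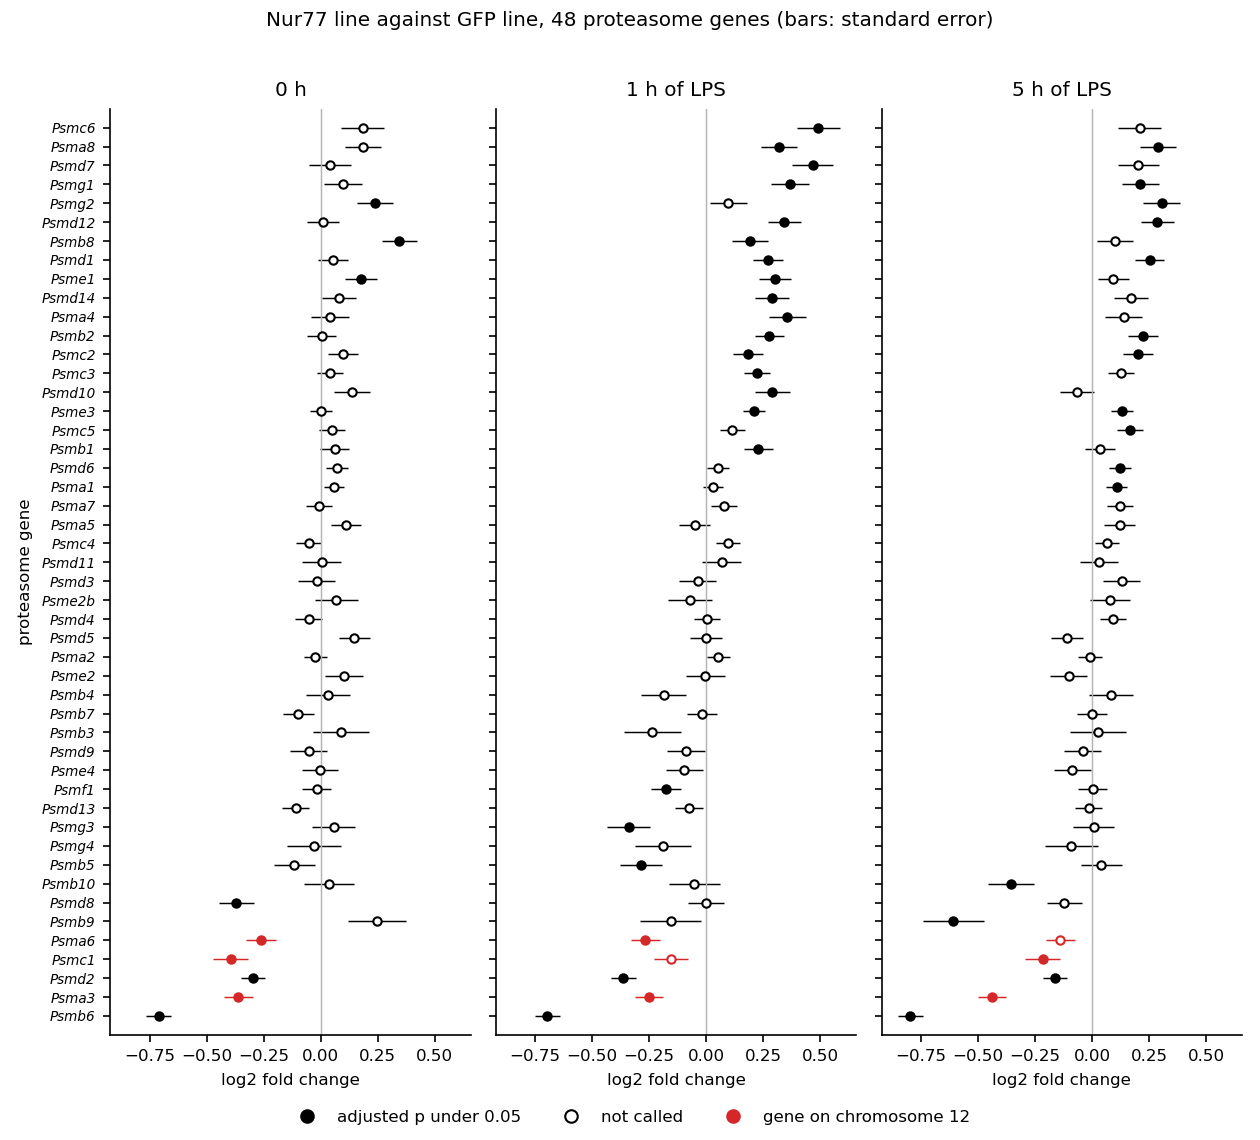
Log2 fold change of the Nur77 line against the GFP line for each of the 48 tested proteasome genes (vertical axis, ordered by the mean over times) at 0, 1 and 5 h of LPS (panels), with standard errors as bars. Filled points passed the test, open points did not, and red points are the 3 genes on chromosome 12. Psmb6 is lowest at every time, and Psmb9 and Psmb10 are called lower at 5 h only.

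Genes that work with the proteasome were followed in 3 further lists. Of 22 partners and regulators 12 were called higher and 4 lower after 5 h in GFP cells, and 16 and 4 in Nur77 cells, with medians of 0.19 and 0.32, against 30.6% of all genes higher and 32% lower in GFP cells, and 32.5% and 34.2% in Nur77 cells. Nfe2l1, the transcription factor known to drive proteasome genes when the proteasome is impaired, was at 303 to 324 CPM at 0 h and 542 to 588 CPM at 5 h in GFP cells. It rose by 0.82 there (SE 0.09, adjusted p = 8.06e-09) and by 0.85 in Nur77 cells. Pomp, the maturation factor of the 20S core, rose in Nur77 cells (0.22, adjusted p = 0.0105) and had a log2 fold change of 0.13 in GFP cells (adjusted p = 0.131). Zfand5, a proteasome activator, rose by 0.79 and 0.74 after 1 h and by 0.23 and 0.35 after 5 h. Ubqln2, a ubiquitin shuttle factor, fell by 0.79 and 0.53, and Zfand2a, an arsenite-inducible proteasome partner, by 0.63 and 0.25.

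Of 12 genes of class I antigen processing 9 were called higher in GFP cells after 5 h and 8 in Nur77 cells, with medians of 0.42 and 0.28, against the same 30.6% and 32.5% of all genes. Tap1, the neighbour of Psmb9, was at 30.5 to 34.5 CPM in GFP cells at 0 h and 55.4 to 63.2 CPM at 5 h. It rose by 0.87 in GFP cells (SE 0.08, adjusted p = 2.45e-10) and by 0.80 in Nur77 cells (SE 0.08, adjusted p = 1.05e-09), a difference that did not pass (-0.06, 95% interval -0.28 to 0.16, adjusted p = 0.786). Psmb9, which starts 225 bases away on the other strand, fell in Nur77 cells as given above. After 1 h of LPS Tap1 was called lower in Nur77 cells as well (-0.36, adjusted p = 0.000631, and -0.32 without replicate 2). Tap2, its partner in the peptide transporter, rose by 0.45 in GFP cells and was at 0.06 in Nur77 cells (adjusted p = 0.486), with a called difference of -0.39 (adjusted p = 0.02) that missed the threshold in 4 of 31 alternatives. Tapbpl, a peptide editor of class I molecules, rose by 1.29 in GFP cells and was at 0.16 in Nur77 cells (difference -1.13, adjusted p = 1.73e-05). The class I loader gene Tapbp rose by 1.18 and 0.90 and the peptide trimming enzyme gene Erap1 by 0.50 and 0.21. The differences of both were called (-0.29 and -0.30), but not in 14 and 21 of 31 alternatives.

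Of 16 tested genes of interferon signalling 14 were called higher and 2 lower in GFP cells after 5 h, and 11 and 3 in Nur77 cells, with medians of 1.12 and 0.78, against the same shares of all genes. Irf1, a transcription factor of the interferon response known to act on immunoproteasome genes, was at 16.6, 15.05, 15.1 and 14.2 CPM in GFP cells at 0 h, at 219, 218, 239.85 and 238 CPM at 1 h and at 115, 124, 116 and 118 CPM at 5 h. In Nur77 cells it was at 20.5, 21.1, 20.5 and 18.2 CPM at 0 h, at 109, 35.5, 98.2 and 98.5 CPM at 1 h and at 35.4, 33.4, 36.8 and 33.4 CPM at 5 h. The Nur77 libraries lay below all GFP libraries at 1 h and at 5 h. The rise was 3.92 in GFP cells and 2.09 in Nur77 cells at 1 h (difference -1.82, SE 0.29, adjusted p = 0.00152, and -1.57 without replicate 2), and 2.96 and 0.80 at 5 h (difference -2.17, SE 0.30, adjusted p = 5.18e-05). Nlrc5, the activator of class I genes, rose by 1.02 and 1.09. Irf7 rose by 4.22 in GFP cells and 5.04 in Nur77 cells at 5 h, and Stat2 by 1.70 and 2.22. Both were called higher in the Nur77 line at 5 h (0.55, adjusted p = 0.00125, and 0.33, adjusted p = 0.0235), Stat2 not in 3 of 31 alternatives. Of the 16 genes the response at 5 h was called more positive in Nur77 cells for 2 and more negative for 5, against 2.75% and 5.12% of all genes. The part of Irf1 in the levels of the proteasome genes was not tested.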

How the data were processed

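Per the labels' protocols, the mRNA libraries came from a KAPA Hyperprep kit. CASAVA 1.8.2, HISAT2 2.1.0 and mm10 stand in the submitters' processing notes; how reads were counted, with or without strand, and on which annotation is not given in the sources used here. Deposited by the authors was a table of estimated counts for 42361 transcripts in 24 libraries, not normalized, in which every value was a multiple of 0.5 (tolerance 1e-09). For each gene the transcript of highest mean was kept, since many isoforms repeated nearly the same counts. Others did not, such as those of Psmf1 (mean counts 454.4 and 367.6) and Cd68 (16507.6 and 7560.5). Symbols came from RefSeq for 42203 transcripts and from GENCODE for 65; the other 93 held 0.496% of the counts.

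The estimated counts were rounded, filtered with filterByExpr, scaled by TMM, a trimmed mean of log ratios (factors 0.896 to 1.14) and tested over 12198 genes with the robust quasi-likelihood F test of edgeR 4.0.16 in R 4.3.3. The model had 6 group means over all 24 libraries, 18 residual degrees of freedom and a common dispersion whose square root was 0.0979. Genes were called at a Benjamini-Hochberg adjusted p under 0.05 over all genes tested, and intervals are 95%. At low depth intervals widen, as for Psmb9. The script was tested on simulated data with 200 changed genes.

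Catalytic pair ratios (count plus 0.5) were compared with exact permutation tests in SciPy 1.17.1. The alternatives were DESeq2 1.42.0, DESeq2 size factors in the edgeR test, the mean over transcripts, a replicate block, fits of only the compared groups, no filter on counts, a 1 CPM filter (4 libraries), pseudocounts of 0 and 2, and leaving out each library.

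The members, lists and rules were chosen with earlier results of these data known. Named were the 5 inducible and 3 constitutive catalytic genes, Psme3, Psme4, Psmf1, Pomp, Nfe2l1, Tap1, Tap2, Irf1 and Nlrc5; 1 further gene is not reported here. To these were added, per comparison, the 3 higher and 3 lower called members with the largest change, and up to 3 genes of each further list by adjusted p.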

Additional observations from a re-analysis of the deposited data

Results flagged for a closer look

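Single libraries that stood apart from the other 3 of their group were found in 10 of 156 groups of 4 values looked at (26 named proteasome genes in 6 groups), where chance gives about 5%. Replicate 4 of the GFP line at 0 h was the highest of its group for Psmd10 (43.8 CPM, others 33.2 to 34.1), Psmd7 (130.6 CPM, others 107 to 110.1) and Psmd8 (326 CPM, others 298 to 302). In the Nur77 line at 0 h, replicate 3 was highest for Psmb9 (17.0 CPM, others 13.75 to 14.2) and Psmd2 (413 CPM, others 398 to 400.2), and replicate 4 for Psmc6 (188 CPM, others 173 to 174). Psmb10 was highest in replicate 1 of the Nur77 line at 1 h (18.3 CPM, others 12.8 to 13.3). In replicate 4 of the Nur77 line at 5 h Psmb6 was lowest (136 CPM, others 147 to 148), as was Psmc1 (311 CPM, others 328 to 331). Psmd7 was lowest in replicate 1 of the GFP line at 5 h (134 CPM, others 137 to 138).

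The response to LPS differed between the lines, by the test of the difference itself (Nur77 minus GFP, log2 scale), for the named genes given here. At 5 h it was more negative in the Nur77 line for Psmb9 (-0.85), Irf1 (-2.17), Tapbpl (-1.13), Tap2 (-0.39), Erap1 (-0.30) and Tapbp (-0.29). It was more positive at 5 h for Usp18, which removes the interferon-induced modifier ISG15 (2.03) and for Zfand2a (0.39). At 1 h it was called for Irf1 (-1.82).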

How the results depend on the processing

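Counts of called proteasome genes stayed within 1.5 times the reported count in most alternatives. The shares of all genes called under the alternatives are not given, so these counts do not tell a shift of proteasome genes from a shift of all genes. Of 192 log2 fold changes of named genes, called or not, 6 differed in sign between alternatives. Of these 6, 0 were called in the reported fit. A fit of only the groups compared gave 14 genes between the lines at 1 h (23 reported), 28 at 5 h (17 reported) and 9 for the interaction at 5 h (1 reported), and DESeq2 gave 4 for the interaction at 1 h (0 reported). Leaving out each library in turn gave 3 to 5 genes for 1 h of LPS in GFP cells, 0 to 9 for the interaction at 1 h and 1 to 5 for that at 5 h; the cause was not tested. The extremes were reached without Nur77 replicate 2 at 1 h (5 in the first and the last) and without Nur77 replicate 1 at 1 h (9).

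The replicate numbers were not said to pair libraries, and deviations of same-numbered libraries had a median correlation of -0.015 over 60 pairs. With a replicate block the counts were 8, 22 and 15 between the lines at 0, 1 and 5 h, 3 and 26 for 1 and 5 h of LPS in GFP cells, 22 and 34 in Nur77 cells, and 0 and 1 for the interactions. No block was fitted for the ratios.

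Among named genes, Psmb8 between the lines at 1 h lost its call in 20 of 31 alternatives and Psme1 at 0 h in 22. Psmb9 at 0 h was called only without Nur77 replicate 2 at 1 h (adjusted p = 0.0398). Depth limits precision for low genes such as Psmb9, at 6.73 to 17.0 CPM.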
